A study of Mus musculus with 3 samples.

Results

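A chosen set of 6 predicted mouse alpha-defensin genes with Gm or AY symbols (Gm14850, Gm14851, Gm15284, Gm15293, AY761184 and AY761185) was followed through 3 single-cell libraries of small intestinal organoids. They were chosen by name, as 6 of the 23271 gene symbols measured. Further Gm symbols of the family, Gm15299 among them, are counted below with 20 other alpha-defensin symbols. Of the chosen 6, Gm15284, Gm14850, Gm15293, Gm14851 and AY761185 stood 4.05 to 15.1 times higher in ENR+CD organoids than in conventional ENR organoids. AY761184 stayed level between these libraries, at 984 and 1112 CPM (a gene's share of all UMIs of its library, times 1000000), and was 4.09 to 4.51 times lower in ENR+CD than in ENR among cells of like, high Lyz1 level. All 6 were low or at 0 in ENR+CV.

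Alpha-defensins, called cryptdins in the mouse, are short cationic peptides that Paneth cells (PCs) at the crypt base pack into granules and release into the gut lumen, where they kill bacteria. They are made as precursors from a pair of exons, a first exon for the signal peptide and an acidic propeptide and a second for the mature peptide, whose cysteines pair into disulfide bonds. The mouse genome holds a large cluster of near-identical copies, along with a sister group, the cryptdin-related sequence (CRS) genes, which share the first exon but encode a cysteine-rich mature part of a different pattern. PCs also secrete lysozyme, encoded by Lyz1, and Mmp7, the protease that activates cryptdins in the mouse.

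The 3 libraries came from Seq-Well, which seals single cells with barcoded beads in nanowells, on organoids of crypts from the proximal small intestine of C57BL/6 mice aged 3 to 6 months. A single-donor culture enriched for intestinal stem cells (ISCs) was passaged for 6 days into 1 of 3 media. All 3 contained the conventional ENR factors, 50 ng/mL EGF, 100 ng/mL Noggin and 500 ng/mL R-spondin 1. To these ENR+CD added 3 µM CHIR99021, which drives Wnt signalling, with 10 µM DAPT, which blocks Notch signalling by inhibiting gamma-secretase. ENR+CV, the ISC-enriched medium in which the precursors were kept, added 3 µM CHIR99021 with 1 mM valproic acid. Each medium is 1 array loaded with cells of 6 wells from 1 donor, so there is no replicate. No test between media was possible, and every interval below is a 95% interval for counting error only.

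The deposited tables of the ENR+CD and ENR+CV libraries are attached to samples carrying each other's label. All 2506 cells named ENR+CD in the merged table were found, with identical counts, in the table attached to the ENR+CV sample, and all 1092 cells named ENR+CV in the table attached to the ENR+CD sample. The merged names were followed, and taking the attachments instead would exchange the ENR+CD and ENR+CV values throughout. Cells with 1000 to under 8000 UMIs and at least 400 genes were kept, which left 2545 cells of ENR, 2383 of ENR+CD and 985 of ENR+CV, with median depths of 1553, 1543 and 2499 UMIs. A single cell barcode was shared between ENR and ENR+CD, and none with ENR+CV.

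All 6 genes lie in the alpha-defensin cluster of chromosome 8 (GRCm38, GENCODE vM21 models), each with 2 exons and annotated as protein coding. On the plus strand are Gm15284, now Defa30 (chr8:21134642-21135598), Gm15293, now Defa41 (chr8:21201561-21202539), and Gm14850, now Defa37 (chr8:21565386-21566349). On the minus strand are AY761185 (chr8:20943694-20944710), Gm14851, now Defa38 (chr8:21095074-21096050), and AY761184, now Defa39 (chr8:21702519-21703645). The ends of their coding sequences follow, since this stretch encodes all or part of the mature peptide and separates the cryptdin type from the CRS type. Each line is the last 120 bases of the coding sequence in the GENCODE transcript, stop codon included, with the in-frame cysteine codons (tgc or tgt) in capitals.
Gm15284: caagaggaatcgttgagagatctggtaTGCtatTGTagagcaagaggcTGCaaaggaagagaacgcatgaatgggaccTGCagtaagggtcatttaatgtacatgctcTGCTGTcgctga
Gm14850: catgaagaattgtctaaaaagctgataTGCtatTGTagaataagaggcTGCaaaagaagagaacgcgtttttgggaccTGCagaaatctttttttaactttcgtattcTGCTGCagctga
Gm15293: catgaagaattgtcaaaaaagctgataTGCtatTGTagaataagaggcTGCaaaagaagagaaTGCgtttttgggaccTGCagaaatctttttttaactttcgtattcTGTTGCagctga
Gm14851: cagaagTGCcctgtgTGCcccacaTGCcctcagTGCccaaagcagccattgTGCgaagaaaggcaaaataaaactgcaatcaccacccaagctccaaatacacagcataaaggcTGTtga
AY761184: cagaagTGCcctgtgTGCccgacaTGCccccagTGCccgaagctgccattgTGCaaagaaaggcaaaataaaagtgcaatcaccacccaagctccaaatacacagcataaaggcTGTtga
AY761185: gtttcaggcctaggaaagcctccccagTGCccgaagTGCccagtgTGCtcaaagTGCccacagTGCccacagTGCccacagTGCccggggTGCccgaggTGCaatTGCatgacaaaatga
Gm15284 and Gm14850 hold 6 cysteine codons here in the same frame and spacing, ending in a pair of adjacent cysteines, which is the classical cryptdin arrangement. Gm15293 holds these 6 plus a further one, 7 in all. The minus-strand genes instead repeat a cysteine codon followed by 2 others, the CRS arrangement, with 10 cysteine codons in AY761185 and 6 in this stretch of Gm14851 and AY761184, whose whole coding sequences hold 11.

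Several of these genes are close to identical over the coding sequence. Gm14850 and Gm15293 shared 97.5% of aligned bases, and Gm15284 shared 84.8% with Gm14850 and 83.3% with Gm15293. AY761184 and Gm14851 shared 96.9%. AY761185 stood apart, at 63.9% to 69.5% identity with the other members. The last 300 bases of the AY761184 and Gm14851 coding sequences (positions 52 to 351, counted from 1 at the start codon) are given because this pair behaved differently between the libraries, with the 11 bases that differ in capitals.
AY761184: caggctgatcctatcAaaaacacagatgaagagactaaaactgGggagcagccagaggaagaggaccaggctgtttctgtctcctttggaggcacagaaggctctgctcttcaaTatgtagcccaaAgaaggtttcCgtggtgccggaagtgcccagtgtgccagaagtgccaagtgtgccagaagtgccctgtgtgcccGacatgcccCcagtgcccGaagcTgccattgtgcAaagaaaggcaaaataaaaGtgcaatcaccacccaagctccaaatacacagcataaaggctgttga
Gm14851: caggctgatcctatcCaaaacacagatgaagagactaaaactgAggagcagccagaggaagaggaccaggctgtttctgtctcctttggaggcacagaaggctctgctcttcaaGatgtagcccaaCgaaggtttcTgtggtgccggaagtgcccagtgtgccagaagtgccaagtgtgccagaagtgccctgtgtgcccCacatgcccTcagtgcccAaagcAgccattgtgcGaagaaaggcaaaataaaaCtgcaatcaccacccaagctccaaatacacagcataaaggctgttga
All 11 differences between the coding sequences lie at positions 67 to 305 and none is a gap.

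Such likeness bears on what a read can be assigned to. Of the 50-base words (the length of the read that carries the transcript) in each member's transcript, the share found in no other gene of the annotation was 100% for AY761185, 66.5% for AY761184, 47.6% for Gm15284, 44.4% for Gm14851, 43.9% for Gm15293 and 0% for Gm14850. All 354 words of Gm14850 occur in Defa36, so its counts cannot be told apart from those of that copy by sequence. AY761184 shares 11.5% of its words with Gm14851. The sources used here do not give how reads matching several copies were handled.

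The UMIs of the 6 genes also rested on few reads. The kept cells held 15.3 reads per UMI over all genes in ENR and 18.3 in ENR+CD, and Lyz1 18.8 and 20.1. AY761184 had 6.64 and 6.67 reads per UMI, Gm15284 4.37 and 4.03, Gm14851 2.85 and 5.07, and Gm15293 1.86 and 3.0. Gm14850 stood at 1.05 and 1.04 and AY761185 at 1.02 and 1.03, so nearly all of their UMIs were seen in a single read. The other alpha-defensin genes with at least 20 UMIs ranged from 1.0 to 5.53 in ENR and from 1.01 to 5.23 in ENR+CD. The part of these read depths in the results below was not tested, beyond the values with reads in place of UMIs in the closing section.

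Among the 3 cryptdin-type members, Gm15284 was by far the most abundant. It stood at 6085 CPM in ENR (interval 6018 to 6153), 38595 in ENR+CD (38414 to 38776) and 447 in ENR+CV (423 to 472). Gm14850 gave 79.7 CPM in ENR (72.1 to 87.8) and 323 in ENR+CD (307 to 340). It had no UMI among the 2942252 of ENR+CV, with an upper interval bound of 1.25 CPM. Gm15293 gave 25.3 CPM in ENR (21.1 to 30.1), 382 in ENR+CD (365 to 401) and 3.06 in ENR+CV (1.40 to 5.81). For all 3 the libraries ran in the order ENR+CD, ENR, ENR+CV. The intervals did not overlap, but they cover counting error only, and the share of all genes with such a gap was not counted.

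Among the CRS-type genes, Gm14851 stood at 857 CPM in ENR (832 to 883), 3835 in ENR+CD (3778 to 3892) and 7.14 in ENR+CV (4.42 to 10.9). AY761185 followed the same order, at 251 CPM in ENR (238 to 266), 1211 in ENR+CD (1179 to 1244) and 4.42 in ENR+CV (2.35 to 7.56). AY761184 measured 984 CPM in ENR (957 to 1012), 1112 in ENR+CD (1082 to 1143) and 6.46 in ENR+CV (3.89 to 10.1). Its ENR and ENR+CD intervals did not overlap, but the levels lay close together.

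**Figure D1:**
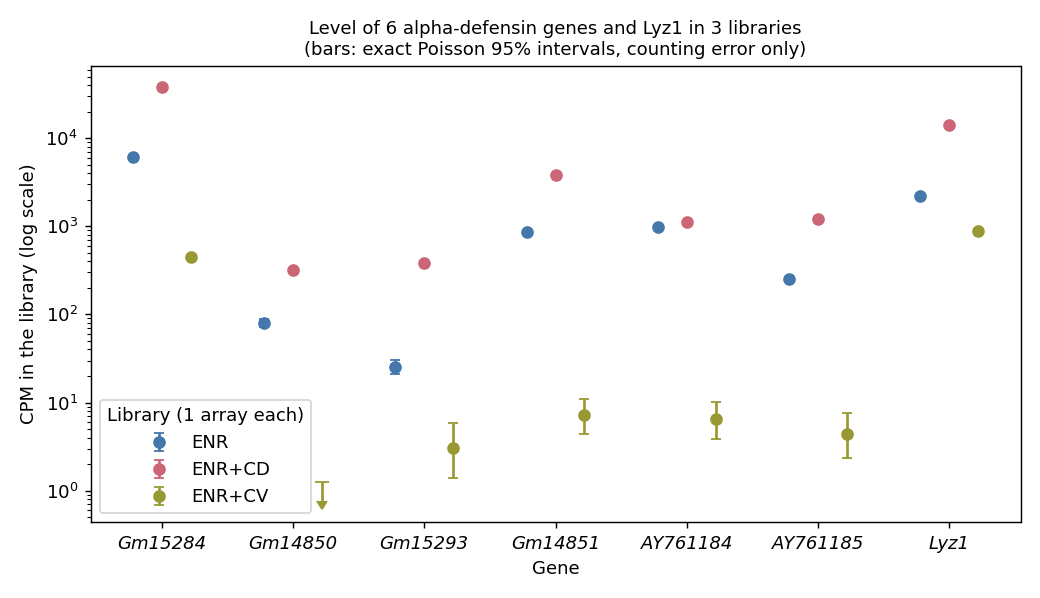
Summed level (CPM, log scale) of the 6 genes and Lyz1 in the ENR, ENR+CD and ENR+CV libraries (1 array each), with exact Poisson 95% intervals for counting error as bars; the arrow marks the upper interval bound for Gm14850 in ENR+CV, where it had 0 UMIs. Lyz1 and all genes but AY761184 lie well above ENR in ENR+CD, while the ENR and ENR+CD points of AY761184 are close, at 984 and 1112 CPM.

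The order of the genes changed with the medium. These levels count tagged transcript ends and were not scaled by length. The GENCODE model of Gm14851 ends at the stop codon, while that of AY761184 holds 109 bases after it. What this does to the order was not tested. In ENR the order was Gm15284, AY761184, Gm14851, AY761185, Gm14850 and Gm15293. In ENR+CD it was Gm15284, Gm14851, AY761185, AY761184, Gm15293 and Gm14850, so AY761184 moved from the second to the fourth place, and no intervals of neighbours overlapped in either library. In ENR+CV, Gm15284 led and the intervals of Gm14851, AY761184, AY761185 and Gm15293 overlapped, so those 4 could not be ordered. Gm15284 made up 73.5% of the UMIs of the 6 genes in ENR and 84.9% in ENR+CD, while AY761184 fell from 11.9% (11.6 to 12.2) to 2.45% (2.38 to 2.51). Together the 6 genes took 0.828% of the ENR, 4.55% of the ENR+CD and 0.0468% of the ENR+CV UMIs, which is 21.6%, 29.5% and 11.3% of the UMIs of these genes and 20 other alpha-defensin symbols.

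To ask which members rose under CHIR99021 and DAPT, ENR+CD was set against ENR, and a gene was called where the levels were 2-fold or more apart, their Poisson intervals did not overlap and both libraries together held 20 or more UMIs. By this rule 5 of the 6 genes were higher in ENR+CD, where 10.8% of the 12197 genes tested were called higher, and none was lower, where 9.35% were. Gm15293 had the largest ratio, 15.1-fold (12.6 to 18.2), on 129 ENR UMIs. It shares 48.5% of its 50-base words with Defa5, which was 20.3-fold higher (15.6 to 26.8). The part of these shared words in the ratio was not tested. Gm15284 was 6.34-fold higher (6.27 to 6.42), close to Lyz1 at 6.39-fold (6.26 to 6.52). AY761185 was 4.82-fold (4.53 to 5.12), Gm14851 4.48-fold (4.33 to 4.63) and Gm14850 4.05-fold higher (3.63 to 4.54). AY761184, at 1.13-fold (1.09 to 1.17), was not called. The median log2 ratio was 2.22 over the 6 genes and -0.01 over all genes tested. More transcripts per cell and more cells of a type cannot be told apart in these library sums.

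The rest of the family went the same way. Of 20 other alpha-defensin symbols, 17 reached 20 UMIs in this pair, and 16 of them were called higher, with a median log2 ratio of 2.37. The 3 with most UMIs were Defa24, 3.03-fold higher, Defa17, 4.07-fold, and Defa3, 15.4-fold. The exception was Gm15299 (Defa27), a cryptdin-type gene on the plus strand, at 371 and 414 CPM and 1.12-fold (1.05 to 1.19). Of 13 PC marker genes, not all of them antimicrobial, 11 were called higher, with a median log2 ratio of 2.65, and Mmp7 was 10.7-fold higher (10.2 to 11.2).

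**Figure D2:**
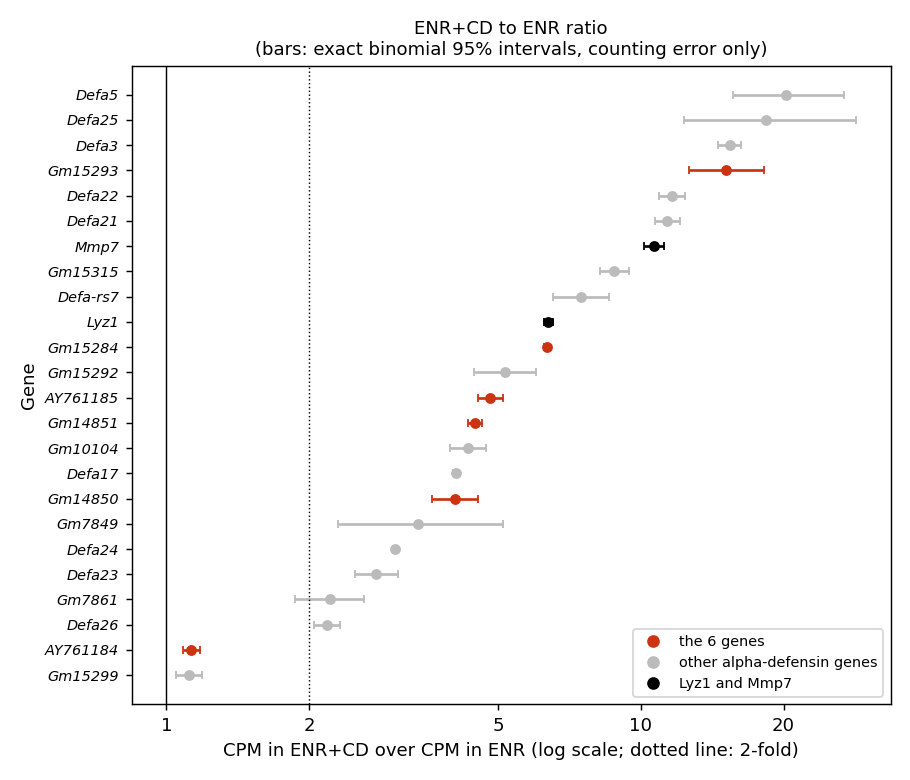
Ratio of CPM in ENR+CD to CPM in ENR (log axis) for the 6 genes (red), 16 other alpha-defensin genes with at least 20 UMIs (grey) and Lyz1 and Mmp7 (black), with exact binomial 95% intervals for counting error. AY761184 and Gm15299 sit near 1, left of the dotted 2-fold line, and the other 5 red points lie between 4.05 and 15.1.

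The promoters of the members were read from the RefSeq table (GRCm38.p6), which gave a sequence for 5 of the 6 (not AY761184). The search covered 300 bases, from 250 before to 50 after the RefSeq start. Up to 160 bases before the start are shown, 5′ to 3′ on the gene's strand, without the last 44 for Gm14851 and Gm15293, whose RefSeq models begin at the start codon. Capitals mark TATAAA, searched on the gene's strand, and CTTTGA, the core of the sequence that the Wnt effectors TCF and LEF bind, searched on both strands (TCAAAG when read on the other strand). The stretches are chr8:21134490-21134649 (plus strand) for Gm15284, chr8:21565226-21565385 (plus) for Gm14850, chr8:21201444-21201559 (plus) for Gm15293, chr8:21096095-21096210 (minus) for Gm14851 and chr8:20944749-20944908 (minus) for AY761185.
Gm15284: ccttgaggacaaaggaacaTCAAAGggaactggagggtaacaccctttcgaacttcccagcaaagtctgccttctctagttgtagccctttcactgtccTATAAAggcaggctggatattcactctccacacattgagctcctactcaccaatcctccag
Gm14850: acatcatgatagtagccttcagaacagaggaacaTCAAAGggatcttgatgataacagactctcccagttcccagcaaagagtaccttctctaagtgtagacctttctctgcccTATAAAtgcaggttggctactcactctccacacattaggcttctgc
Gm15293: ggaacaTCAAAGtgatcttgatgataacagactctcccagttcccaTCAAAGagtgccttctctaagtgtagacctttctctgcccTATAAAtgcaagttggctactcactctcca
Gm14851: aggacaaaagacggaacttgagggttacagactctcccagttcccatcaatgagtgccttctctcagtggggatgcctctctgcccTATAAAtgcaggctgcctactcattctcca
AY761185: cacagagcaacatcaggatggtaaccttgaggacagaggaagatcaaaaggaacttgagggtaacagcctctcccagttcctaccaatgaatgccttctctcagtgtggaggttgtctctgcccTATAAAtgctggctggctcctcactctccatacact
TATAAA occurred once in all 5 promoters, and in 8.32% of the 32851 promoter sequences of this length in the table. CTTTGA occurred in the 3 cryptdin-type promoters, once in Gm15284 and Gm14850 and 2 times in Gm15293, and not in the windows of Gm14851 and AY761185, against 16.0% of all promoters. All 5 of these genes were higher in ENR+CD, with and without the CTTTGA letters.

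Against ENR, all 6 genes were lower in ENR+CV, where 5.8% of the 11962 genes tested were called lower and 15.9% higher. AY761184 was 152-fold lower (97.5 to 253), Gm14851 120-fold (78.4 to 194), AY761185 56.9-fold (33.2 to 107), Gm15284 13.6-fold (12.9 to 14.4) and Gm15293 8.28-fold (4.23 to 18.5). Gm14850, at 0 UMIs in ENR+CV, was at least 78.2-fold lower, with 3 UMIs set for the library as the bound. Lyz1 itself was 2.47-fold lower (2.37 to 2.58). The median log2 ratio over all genes tested was 0.35 in this pair, and -6.06 over the 6 genes, so scaling to the median gene widens these differences.

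Between the media that share CHIR99021, all 6 genes were higher in ENR+CD than in ENR+CV, where 7.1% of the 12099 genes tested were called higher and 18.9% lower. The ratios ran from 86.4-fold for Gm15284 (81.8 to 91.2) to 537-fold for Gm14851 (351 to 868), and AY761184 was 172-fold higher (110 to 286). Gm14850 was at least 317-fold higher. These sizes and their order depend on few cells and on the settings. Over the alternatives tried, the ratio ran from 34.0 (reads) to 828 for Gm15284 and from 168 to 3096 for AY761184, both highest without the 1% of cells with most member UMIs, and from 20.1 (all merged cells) to 1083 for Gm15293. Each library serves in 2 of the comparisons between media, which are therefore not independent of each other. Few cells carried the ENR+CV counts. A single cell held 578 of the 1315 Gm15284 UMIs, and the 10 highest cells held 90.3% of them. All UMIs of Gm14851, Gm15293, AY761184 and AY761185 in this library fell in 9, 5, 9 and 8 cells.

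The share of cells in which a gene was found followed its library level, except for AY761184. Each cell was thinned to 1000 UMIs for this measure. Gm15284 was found in 62.8% of ENR cells (60.9 to 64.7) and 95.5% of ENR+CD cells (94.6 to 96.3), and Gm14851 in 29.8% (28.1 to 31.6) and 72.3% (70.5 to 74.1). AY761185 went from 16.9% (15.4 to 18.4) to 57.1% (55.0 to 59.1), Gm14850 from 6.05% (5.16 to 7.05) to 23.8% (22.1 to 25.5) and Gm15293 from 2.36% (1.80 to 3.02) to 23.8% (22.1 to 25.6). AY761184 was found in more cells in ENR+CD than in ENR, 49.0% (47.0 to 51.0) against 30% (28.2 to 31.8), although its library level was nearly the same. At own depth the shares of AY761184 were 59.9% and 38.8%, and those of Gm15284 98.3% and 71.9%. In ENR+CV, Gm15284 was found in 5.28% of cells (3.97 to 6.87) and the others in 0.508% or fewer.

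AY761184 was thus carried by fewer ENR cells at higher levels. Among ENR cells its share of a cell's UMIs averaged 0.0981% with an SD over cells of 0.296%, and the highest cell held 214 UMIs. In ENR+CD the mean was 0.111% with an SD of 0.170%, and the highest cell held 48. Of 2383 ENR+CD cells, 132 held all 6 genes after thinning and 90 held none, whereas 17 of 2545 ENR cells held all 6 and 835 none. In ENR+CV, 933 of 985 cells held none and no cell held more than 4.

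Low shares need a background level, since free RNA can give UMIs to any cell. In an enterocyte-like ENR cluster of 164 cells that should lack alpha-defensins (cluster 6), Gm15284 was found in 44.5% of thinned cells, AY761184 in 20.1%, Gm14851 in 17.7%, AY761185 in 8.54%, Gm14850 in 1.83% and Gm15293 in 0 of 164, at a median own depth of 1662 UMIs. For Gm15293 a bound of 3 cells, and not an exact interval, gives up to 1.83%. These shares are below those of the whole ENR library. In cluster 12, an enteroendocrine-like group with 92 ENR+CD cells at a median of 2591 UMIs, Gm15284 was found in 77.2% and AY761184 in 10.9% of thinned cells. How much of each library's signal is free RNA was not tested.

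Over cells, each gene was compared with Lyz1 by Pearson's r on log-scaled UMI shares, as a description. The points share library and depth. In ENR (n = 2545 cells) r was 0.62 for Gm15284, 0.57 for AY761184, 0.56 for Gm14851, 0.47 for AY761185, 0.37 for Gm14850 and 0.22 for Gm15293. In ENR+CD (n = 2383 cells) r was 0.76 for Gm15284, 0.63 for Gm14851, 0.56 for AY761185, 0.51 for AY761184, 0.34 for Gm14850 and 0.32 for Gm15293. In ENR this order was that of abundance, and in both libraries Gm14850 and Gm15293, found in the fewest cells, had the lowest values. In both libraries the r of AY761184 lay within the range of the other members. In ENR+CV (n = 985 cells) r ran from 0.23 to 0.47 over the 5 genes with UMIs, on 5 to 121 positive cells each, and Gm14850 had none.

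UMIs of the genes were concentrated in the cells richest in Lyz1, more so in ENR. The 254 ENR cells with the highest Lyz1 share (9.21% of all UMIs) held between 40.8% of the AY761185 and 57.4% of the Gm14850 UMIs, and 53.4% of those of AY761184. In ENR+CD the corresponding 238 cells (11% of all UMIs) held 22.8% of the Gm15284 to 26.7% of the Gm14851 UMIs. In ENR+CV, 98 cells with 7.57% of all UMIs held 88.9% to 100% of the UMIs of the 5 genes found there.

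The genes most like each member over ENR+CD cells were other alpha-defensins in every case, among 5514 genes found in at least 100 of these cells. Gm15284 was nearest to Defa24 (r = 0.89), Defa17 (0.85) and Defa3 (0.81). These are also the genes with which Gm15284 shares most 50-base words, at 28.1%, 25.5% and 25.5% of its words. The part of shared words in these r values was not tested. Gm14851 was nearest to Gm15284 (0.78) and Defa24 (0.71), and AY761185 to Defa24 (0.66), Defa3 (0.65) and Defa17 (0.64). AY761184 was nearest to Gm15284 (0.58), Defa24 (0.58) and Gm14851 (0.57). Gm14850 had an r of 0.40 with Gm15284 and 0.39 with Gm15315, and Gm15293 was nearest to Defa22, Defa21 and Gm15315 (0.45, 0.42 and 0.41). Between members the highest r in each library was that of Gm14851 and Gm15284, 0.71 in ENR and 0.78 in ENR+CD.

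To compare the media at a like PC level, cells were grouped by the Lyz1 UMIs left after thinning to 1000 UMIs. The level of all 6 genes was higher from group to group with Lyz1 in both libraries. Among cells with 10 to 29 Lyz1 UMIs (951 ENR+CD and 132 ENR cells), AY761184 stood at 6331 CPM in ENR and 1547 in ENR+CD, 4.09-fold lower in ENR+CD (3.84 to 4.36). With 30 or more (282 and 23 cells) it stood at 10605 and 2351 CPM, 4.51-fold lower (4.06 to 5.01). It was lower in ENR+CD in the remaining groups as well, by 1.69-fold at 0 Lyz1 UMIs, 2.63-fold at 1 to 2 and 2.57-fold at 3 to 9.

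No other member was lower in ENR+CD in every group. Gm14851 stood at 4977 CPM in ENR and 5306 in ENR+CD at 10 to 29 Lyz1 UMIs, a ratio of 1.07 (1.0 to 1.13), and its ratio was 1.13 to 1.41 in the other groups. AY761185 had ratios of 1.19 (1.06 to 1.34) at 10 to 29 and 1.43 (1.15 to 1.81) at 30 or more. Gm15284 kept a ratio of 1.60 (1.57 to 1.64) at 10 to 29 and 1.27 (1.23 to 1.32) at 30 or more, down from 3.18 at 0. Gm15293 remained higher in ENR+CD throughout, from 18.2-fold at 0 to 2.75-fold (1.62 to 5.07) at 30 or more. Gm14850 passed from 3.62-fold higher at 0 to a ratio of 0.740 (0.614 to 0.897) at 10 to 29, and at 30 or more its interval, 0.582 to 1.14, held 1. Above 9 Lyz1 UMIs the differences of Gm14850, Gm14851 and AY761185 between media were thus small beside their 4.05- to 4.82-fold library ratios. Gm15293 stayed higher in ENR+CD, but by less than its 15.1-fold library ratio and on 35 and 14 ENR UMIs. AY761184 was lower in ENR+CD there, as in every other group.

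**Figure D3:**
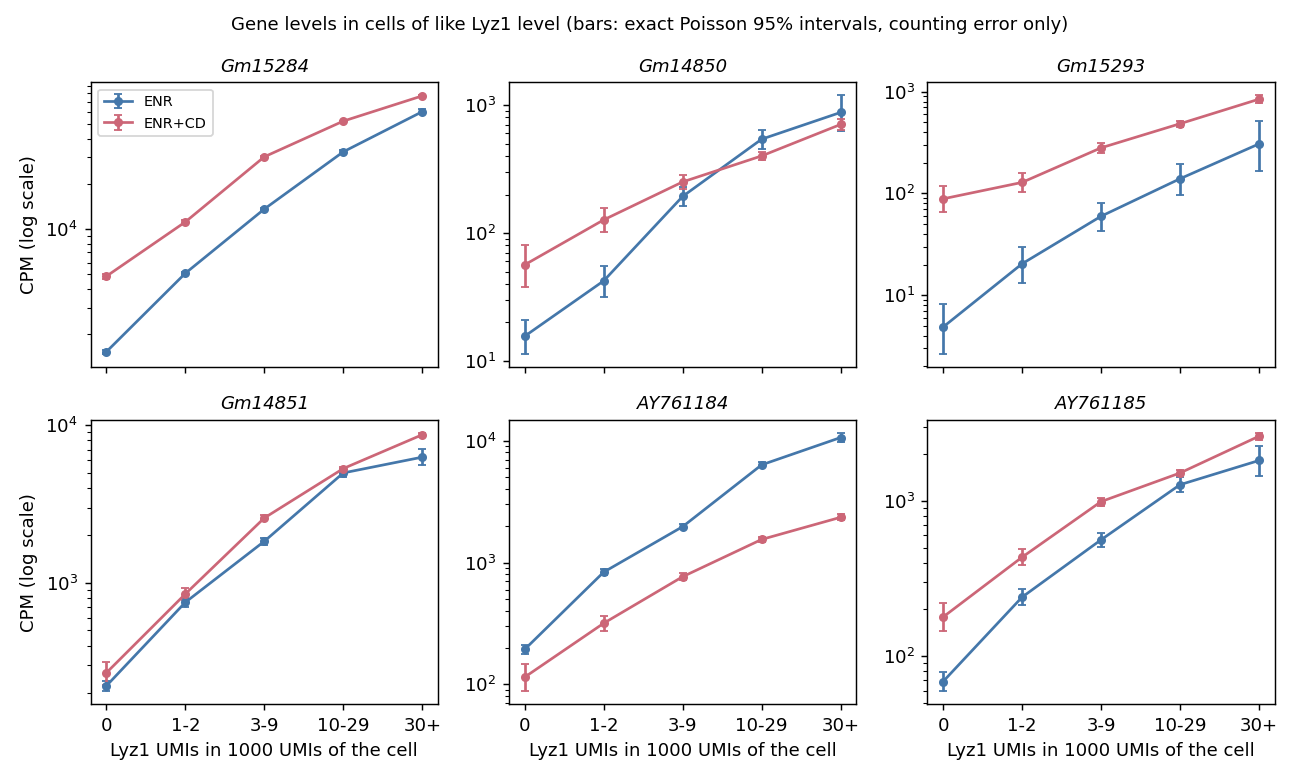
Level (CPM, log scale) of each gene in ENR (blue) and ENR+CD (red) cells grouped by the number of Lyz1 UMIs among 1000 UMIs of the cell, with exact Poisson 95% intervals as bars; the group of 30 or more holds 23 ENR and 282 ENR+CD cells. The AY761184 panel is the only one of the 6 in which the ENR line lies above the ENR+CD line in every group.

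The pair of near-identical genes, AY761184 and Gm14851, gives a measure that depends on neither the library total nor Lyz1. Their GENCODE models differ at the 3′ end, with no base after the stop codon in Gm14851 and 109 in AY761184. The part of this in the shares was not tested. AY761184 made up 53.5% of the UMIs of the pair in ENR (52.4 to 54.5), 22.5% in ENR+CD (21.9 to 23.0) and 47.5% in ENR+CV (31.5 to 63.9, on 40 UMIs). The share was higher in ENR than in ENR+CD in each Lyz1 group. They were 56.0% (54.1 to 57.8) and 22.6% (21.8 to 23.4) at 10 to 29 Lyz1 UMIs, and 46.6% (43.7 to 49.5) and 29.9% (23.7 to 36.7) at 0. With 30 or more they were 62.9% (59.3 to 66.3) and 21.3% (20.3 to 22.3), so the share was higher with Lyz1 in ENR and lower with Lyz1 in ENR+CD.

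Single cells varied in this share beyond counting. Among the 214 ENR cells with at least 10 UMIs of the pair, the AY761184 share had a median of 50% and ran from 18.2% to 82.4% between the 10th and 90th percentiles, with a variance 6.16 times that of binomial sampling. Among 693 such ENR+CD cells the median was 19.0%, the percentiles were 5.88% and 46.0%, and the variance was 4.42 times binomial. AY761184 exceeded Gm14851 in 105 of the 214 ENR cells (49.1%) and in 57 of the 693 ENR+CD cells (8.23%). The libraries overlapped, so the difference lay in the distribution over cells and not in a clean split.

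**Figure D4:**
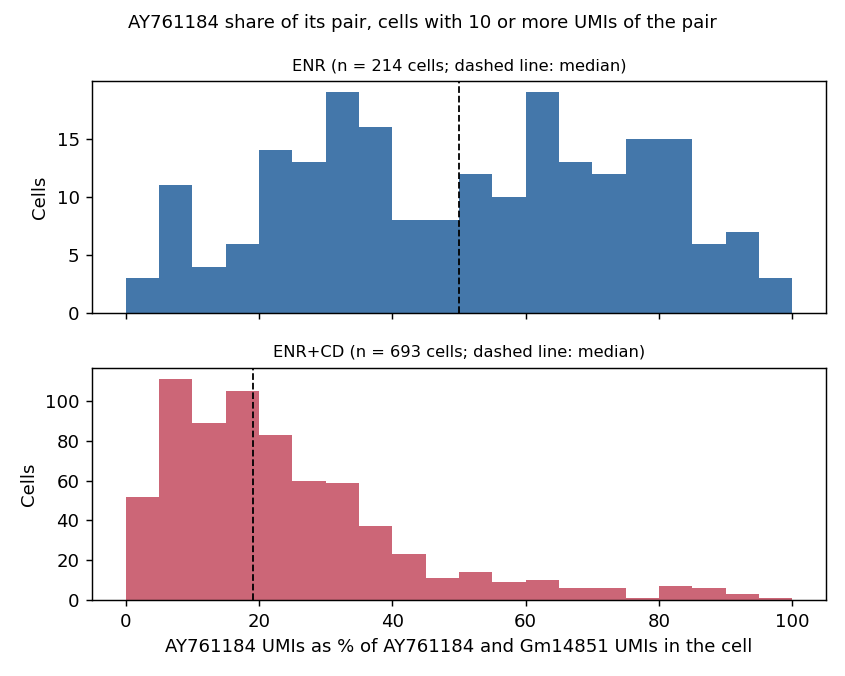
Number of cells by the share of AY761184 among the AY761184 and Gm14851 UMIs of a cell (%, bins of 5), for ENR (top, 214 cells) and ENR+CD (bottom, 693 cells) cells with at least 10 UMIs of the pair; dashed lines are medians, at 50% and 19.0%. The ENR cells spread over the whole range and the ENR+CD cells gather below 50%.

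Clusters of cells were formed without the 6 members and the 20 other alpha-defensin symbols, while Gm6696 and Gm21498, alpha-defensins under other names, stayed in. Clusters were numbered 1 to 16 by rising Lyz1 level. Clusters 15 (939 of 940 cells from ENR+CD) and 16 (207 cells from ENR+CD, 21 from ENR and 7 from ENR+CV) were PC-like, led by Mptx2, Ang4, Lyz1 and Ang2, and by Ang4, Lyz2, Lyz1 and Ang2. Cluster 13 (348 of 352 cells from ENR) was goblet-like by the marker rule, led by Klk1, Ccl9, Ccl6 and Spink4. It had 5 goblet markers among its 10 leading genes but also the PC marker Clps. After thinning, Lyz1 was found in 85.9% of its ENR cells and the goblet marker Muc2 in 14.7%. Whether these are goblet cells was not tested. Cluster 14 (704 of 707 from ENR+CD) was led by Sct, Clu, Mptx2 and Hdc. It had 3 enteroendocrine markers among its 10 leading genes but also the PC marker Mptx2, and is given by number. Clusters mostly of 1 library may be that library and not a cell type.

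In ENR+CD all 6 genes were highest in cluster 16, the cluster with the most Lyz1. There Gm15284 reached 99160 CPM, Gm14851 10452, AY761185 3355, AY761184 2794, Gm15293 1006 and Gm14850 908. Cluster 15 followed, with Gm15284 at 53690 CPM, Gm14851 at 5433, AY761185 at 1613 and AY761184 at 1597. Cluster 14 held 32348 CPM of Gm15284 and 916 of AY761184. Within this library AY761184 kept the same order of clusters 16, 15 and 14 as these genes.

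In ENR the goblet-like cluster 13, with 7596 CPM of Lyz1, held more UMIs of each of the 6 genes than any other cluster, 2152 of the 5014 of AY761184 and 12406 of the 31004 of Gm15284. Gm15284 stood there at 21278 CPM, AY761184 at 3691, Gm14851 at 3144, AY761185 at 931, Gm14850 at 326 and Gm15293 at 101. AY761184 exceeded Gm14851 in this cluster, with intervals that did not overlap, whereas in every ENR+CD cluster of at least 20 cells it stood below Gm14851. In cluster 11 (671 ENR cells, led by Klk1, Spink3, Aadac and Sult1b1) AY761184 stood at 893 CPM beside 962 of Gm14851. In cluster 8, an enteroendocrine-like group of 92 ENR cells, it stood at 731 CPM beside 400 of Gm14851. Cluster 11 held 1170 of the AY761184 UMIs and the 21 ENR cells of cluster 16 held 928. In ENR+CD the clusters with most AY761184 UMIs were instead 15, 14 and 16, with 2202, 1313 and 1281 of 5047.

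Cluster 16 was the PC-like cluster with at least 20 cells of both media, 21 ENR and 207 ENR+CD cells at median depths of 2001 and 1760 UMIs. Lyz1 stood there at 28483 CPM in ENR and 35177 in ENR+CD, a ratio of 1.24 (1.17 to 1.30), and Gm15284 at 89941 and 99160 CPM, a ratio of 1.10 (1.07 to 1.14). AY761185 had a ratio of 1.06 (0.902 to 1.26), Gm14851 of 0.860 (0.790 to 0.938), Gm14850 of 0.587 (0.459 to 0.760) and Gm15293 of 1.98 (1.32 to 3.09). AY761184 stood at 18866 CPM in the ENR cells and 2794 in the ENR+CD cells, 6.75-fold lower in ENR+CD (6.20 to 7.35). In the ENR cells of this cluster it was the second of the 6 genes after Gm15284, and in the ENR+CD cells the fourth. The ENR values rest on 21 cells of 1 library.

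**Figure D5:**
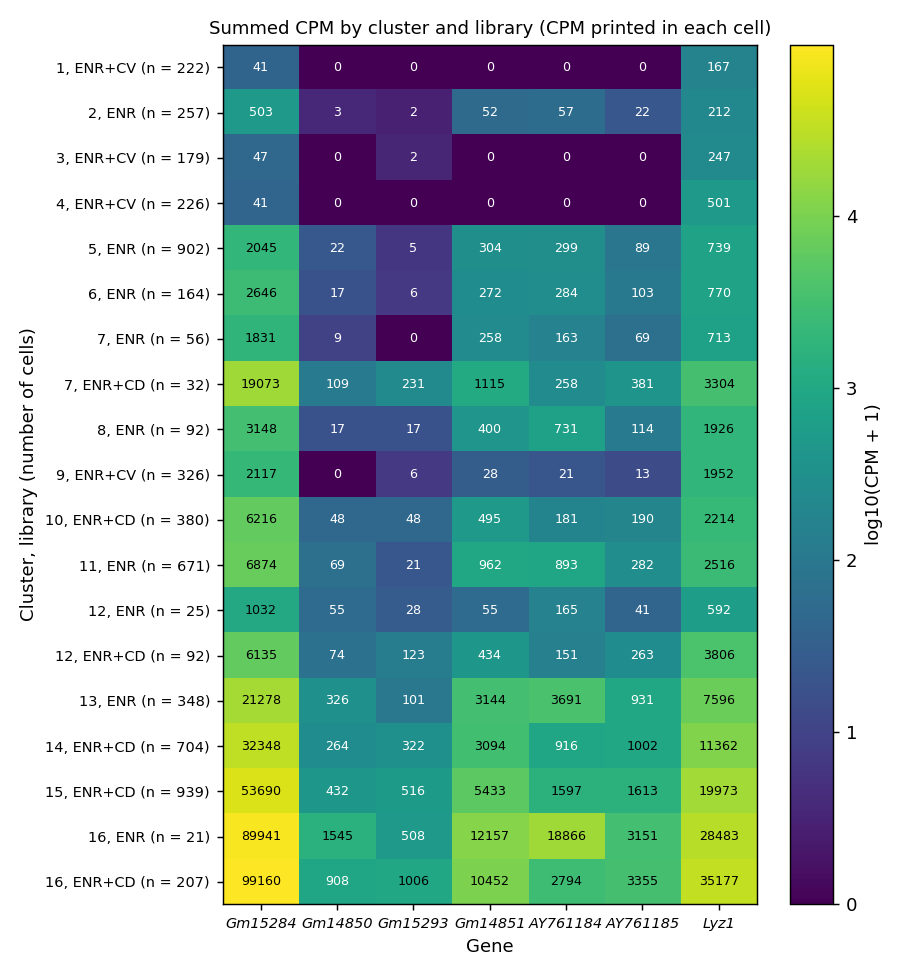
Summed CPM of the 6 genes and Lyz1 (columns) in each cluster and library with at least 20 cells (rows, clusters numbered by rising Lyz1), with the CPM printed in each field and the colour giving log10(CPM + 1). The 6 genes are highest in ENR+CD in cluster 16, and AY761184 exceeds Gm14851 in several ENR rows, clusters 13 and 16 among them (3691 and 18866 CPM beside 3144 and 12157), but in no ENR+CD row.

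In the 7 ENR+CV cells of cluster 16, Lyz1 stood at 44823 CPM, above its level in either other medium, while Gm15284 stood at 5502 CPM and AY761184, Gm14851, AY761185 and Gm15293 had 8, 5, 6 and 5 UMIs. The 9 ENR+CV cells with 30 or more Lyz1 UMIs after thinning held 1165 of the 1315 Gm15284 UMIs and 18 of the 19 AY761184 UMIs. Gm15284 stood at 44580 CPM in these 9 cells (42056 to 47215), beside 60542 in such ENR and 77122 in such ENR+CD cells. Cluster 9, an unnamed cluster of 326 ENR+CV cells, held 1117 of the 1315 Gm15284 UMIs. The groups of 7 and 9 cells are too small for a level of the scarcer members.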

How the data were processed

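The 3 mouse organoid libraries (ENR, ENR+CD and ENR+CV) are single-cell RNA profiles from Seq-Well. The authors aligned the reads to mm10 and collapsed them by cell barcode and UMI, and the submitters' processing notes name bcl2fastq, STAR and Seurat. For versions and annotation, nothing is given in the sources used here. The deposited values are raw counts, as UMI counts in the merged table and as UMI and read counts in the tables of each library. The alpha-defensin members and all lists were chosen with earlier results of these data known.

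Cells with at least 1000 and under 8000 UMIs and at least 400 genes were kept. By the names in the merged table this left 2545 ENR, 2383 ENR+CD and 985 ENR+CV cells. The study's methods also give the fewest cells to ENR+CV and close to equal numbers to ENR and ENR+CD, which the attachment of the tables of each library would not. The kept cells held 5095089 (ENR), 4538388 (ENR+CD) and 2942252 (ENR+CV) UMIs. No doublet caller was run, and doublets stayed in. Levels are UMIs summed over a library as CPM, with exact Poisson 95% intervals. Ratios have exact binomial and shares Clopper-Pearson intervals, all for counting error only. With 1 library per medium, no test and no p-value across cells was made. A gene was called at a 2-fold difference with intervals apart, given 20 or more UMIs over both libraries, and 0 UMIs were replaced by 3 for a bound. Shares of cells and Lyz1 groups used cells thinned to 1000 UMIs (seed 11). Correlations used log1p of UMIs per 10000.

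Clusters came from Seurat 5.3.0 in R 4.3.3 with 12 principal components and 30 neighbours on 1648 variable genes, without the alpha-defensins listed. The symbols Gm6696 and Gm21498, alpha-defensins by their RefSeq names Defa28 and Defa36, were not on that list. A cluster was named where at least 3 markers of a class were among its 10 leading genes. Python 3.11.15, NumPy 2.4.6 and SciPy 1.17.1 were used. Simulated counts with known fold changes were used to check the call rule. Coding sequences came from GENCODE vM21 and were aligned globally (match 1, mismatch -1, gap opening -3).

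Genes named are the 6 members, Lyz1 and Mmp7, the 4 other alpha-defensins with most UMIs, the 3 genes most like each member, and the 4 leading genes of a cluster, except 1 gene that is not reported here. Gm15299, Defa5, Clps and Muc2 were named after their values were seen.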

Additional observations from a re-analysis of the deposited data

Results flagged for a closer look

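Barcodes under 1000 UMIs, which enter no comparison above, also carried the 6 genes. Together they stood at 6871 CPM in 3345 ENR barcodes, 34209 CPM in 5493 ENR+CD barcodes and 140 CPM in 3907 ENR+CV barcodes, beside 8282, 45458 and 468 CPM in the kept cells. They are given because they lie above the limit that a count of 0 allows, in data that the comparisons leave out. In ENR and ENR+CD each gene's level in these barcodes was 0.663 to 0.862 times that in the kept cells. AY761184 made up 50.7% (48.9 to 52.4) of the AY761184 and Gm14851 UMIs in the ENR barcodes and 23.6% (22.8 to 24.5) in the ENR+CD barcodes, beside 53.5% (52.4 to 54.5) and 22.5% (21.9 to 23.0) in the kept cells. Whether these barcodes are shallow cells or empty wells with free RNA was not tested.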

How the results depend on the processing

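No paired analysis was possible because each medium is 1 library with no replicate number. The numbers of members called in each direction between the 3 pairs of libraries were within 1.5 times of those reported under every alternative. These were all merged cells, cells of at least 2000 UMIs, thinned cells, the mean of cell shares, a denominator without alpha-defensins and PC markers, median scaling, reads in place of UMIs, a 1.5-fold or 3-fold rule, no minimum of UMIs, leaving out the 1% of cells with most member UMIs and, chosen after seeing the data, leaving out the goblet-like cluster. The ENR+CD to ENR ratio of AY761184 ran from 0.948 (reads) to 1.75 (without the goblet-like cluster), so its direction is not fixed, and it was called under none. Those of the other members stayed between 3.34 and 24.7. With all merged cells, Gm15293 in ENR+CV was 0.850 times ENR and lost its call, since 1 cell of the 107 then added held 90 of its UMIs. Without the 1% of cells with most member UMIs, the ratio of Gm15284 in ENR+CV to ENR fell from 0.0735 to 0.00933. The ENR+CD to ENR+CV ratio ran from 491 to 2482 for Gm14851 and from 158 to 1151 for AY761185, and all members stayed higher in ENR+CD. The AY761184 share of its pair ran from 52.1% to 72.8% in ENR and from 21.9% to 27.6% in ENR+CD, the highest with reads. The number of members with r of at least 0.5 with Lyz1 in ENR+CD was 4, with 2 in thinned cells and 5 in cells of at least 2000 UMIs. All 6 members were also highest in the ENR+CD cluster with most Lyz1 at resolution 2. The same held with the listed alpha-defensins kept in the clustering, but these genes then helped to form the clusters, so that run adds no support. No run left out Gm6696 and Gm21498. Depth limits Gm14850 and Gm15293 most, and with 1 array per medium a difference between media and one between arrays cannot be told apart.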
